A study of Mus musculus with 12 samples.

Results

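The locus of Mindy4 and its neighbour Aqp1 on mouse chromosome 6 was described at every CpG position that a methylation survey of the left ventricle listed inside either gene or within 20 kb of one. This window held 19 of the 421177 positions in the survey. The locus was chosen by measured values: 7 neighbouring positions inside Mindy4, from 6 bp before chr6:55294861 to 28 bp after chr6:55294897, were less methylated in the offspring of mothers on a high-fat diet. The diet difference at those 7 positions, called the core here, is therefore given as a description without a test. The other 12 positions, 5 in Mindy4 and 7 in Aqp1, were taken in by their place alone.

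Mindy4 (formerly Fam188b) belongs to a family of enzymes that remove ubiquitin chains from proteins. Aqp1 encodes aquaporin 1, a channel that lets water cross the plasma membrane, known in the heart mainly from the endothelial cells of small vessels and capillaries. Methylation of CpG cytosines is usually high inside gene bodies and low at active CpG-rich promoters and enhancers. A level between those extremes arises where cells, or the alleles of a cell, differ.

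The samples were left ventricles from 12 FVB/N mice at 3 weeks of age, profiled by reduced representation bisulfite sequencing (RRBS), which reads cytosine methylation in fragments that begin at CCGG, the site cut by the enzyme MspI. Mothers were FVB/NJ females fed a high-fat diet (HFD, TD.06415) or a regular diet (RD, 5L0D) from 6 weeks of age. They were mated after 8 weeks of the diet to fathers fed RD, and the diet went on through the study. There were 3 female and 3 male offspring of HFD mothers, against 4 female and 2 male offspring of RD mothers. All 12 mice were wild type, and tissue was taken at weaning. Litters are not given in the labels, so the p-values measure the spread between these mice, some of which may share a mother. The libraries of HFD offspring carry the numbers 2 to 8 and those of RD offspring the numbers 9 to 14, so maternal diet and library order cannot be told apart. Values are percent methylation, and without read counts their depth is unknown.

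On the assembly GRCm38.p6, Mindy4 spans chr6:55203350-55320223 and Aqp1 spans chr6:55336299-55348555, both on the plus strand. A gap of 16.1 kb with 1 annotated long non-coding RNA gene, Gm38819, lies between them. The core lies 91.5 kb from the annotated start of Mindy4, 25.3 kb from its end and 41.4 kb from the start of Aqp1. Exon and intron bounds were not used here. Neither start site was covered: the nearest measured position was 27.5 kb from the start of Mindy4 and 7.17 kb from that of Aqp1. The sequences just upstream of both starts (RefSeq, GRCm38.p6, plus strand, 5′ to 3′) show the CpGs that went unmeasured, in capitals. Each stretch ends just before the annotated start of its gene.

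Mindy4, chr6:55203133-55203349: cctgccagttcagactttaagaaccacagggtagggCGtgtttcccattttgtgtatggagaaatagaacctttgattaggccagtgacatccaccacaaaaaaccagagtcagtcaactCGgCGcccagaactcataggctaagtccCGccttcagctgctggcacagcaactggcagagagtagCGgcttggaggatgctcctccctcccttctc
Aqp1, chr6:55336049-55336298: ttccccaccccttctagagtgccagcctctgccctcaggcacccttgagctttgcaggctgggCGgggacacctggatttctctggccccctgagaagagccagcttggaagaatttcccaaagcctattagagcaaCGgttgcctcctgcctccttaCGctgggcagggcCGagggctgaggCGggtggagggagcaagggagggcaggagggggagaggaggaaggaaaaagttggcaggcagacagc

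Each printed stretch holds 5 CpGs. In the full 300-base windows around the starts there are 14 CpGs for Mindy4 and 8 for Aqp1, against a median of 7 over the 32851 windows of the promoter table. The motif CCGG, which reads the same on both strands, occurs 0 times in either window. Of all such windows 52.8% hold it. At least 1 measured position was listed in 36.7% of the windows with the motif and in 0.999% of those without it.

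Core methylation was lower in every HFD mouse than in every RD mouse. The mean over the 7 positions was 20.1%, 30.4% and 22.3% in HFD females 2, 3 and 4. HFD males 2, 3 and 4 had 28.4%, 31.5% and 26.0%. Among RD mice, females 1, 2, 3 and 4 had 55.1%, 65.4%, 51.8% and 50.7%, and males 1 and 2 had 47.0% and 52.5%. The highest HFD mouse, male 3, lay 15.5 points under the lowest RD mouse, male 1. Group means were 26.5% ± 4.52 in HFD and 53.7% ± 6.28 in RD (SD, n = 6 each), a difference of -27.3 percentage points. Because this contrast chose the locus, no p-value is attached to it.

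Single positions of the core carried the same direction at unequal size. The largest difference was at 55294861, with 26.5, 32.3 and 38.5% as the lowest, median and highest HFD values and 57.9, 72.6 and 81.2% as those of RD. At 55294880 the HFD values ran from 22.7% through a median of 31.3% to 36%, and the RD values from 59.6% through 66.7% to 71.4%. The position 55294876 had HFD values of 22.7 to 42.0% (median 34.6%) and RD values of 55.1 to 84.1% (median 62.5%). These 3 positions had the widest gaps between the diets in the core. The first core position had 18.2 to 37.9% in HFD (median 28.2%) and 46.2 to 68.6% in RD (median 55.8%).

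The remaining 3 positions differed by less. Values at 55294874 were 13.3 to 25.0% in HFD (median 17.9%) and 28.6 to 44.9% in RD (median 41.3%). At the last core position they were 4.55 to 25.0% (median 16.7%) and 29.8 to 41.5% (median 32.5%). Only 55294897 had overlapping diets, with 18.8 to 38.3% in HFD and 36.2 to 72.1% in RD. Its range in RD was set by female 2, at 72.1%, the other RD mice reaching at most 50%. The diets did not overlap at 6 of the 7 core positions, all lower in HFD, where 0.335% of 157524 tested sites behaved that way. Since the same contrast chose the locus, that share is given only as background.

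Relative to RD, the HFD mean was 45.3 to 57.7% of the RD mean over the 7 positions. The difference in points ran from -18.0 to -37.6. Whether either measure was even over the positions was not tested.

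**Figure D1:**
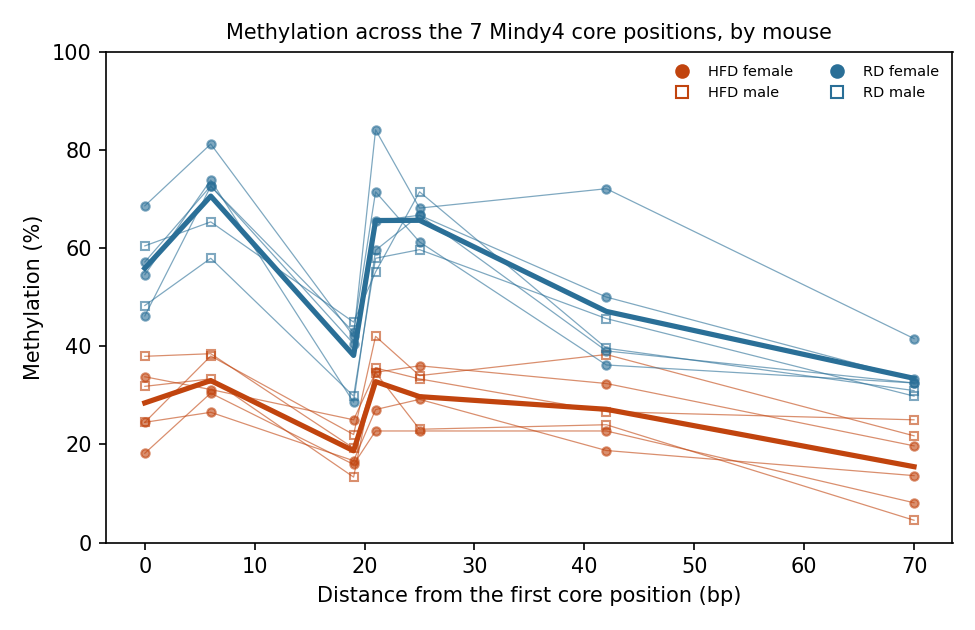
Methylation (%, vertical axis) of each mouse at the 7 core positions, by distance from the first of them (bp, horizontal axis). Thin lines are mice (filled circles female, open squares male) and thick lines are the diet means; the HFD mean lies under the RD mean at every position, and both dip at the third and the last position.

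The shape of the core was shared by the diets, a feature that the selection did not use. The core spans 71 bp, with steps of 2 to 28 bp between positions. In 12 of 12 mice 55294874 was less methylated than 55294876, which lies 2 bp away, and in 12 of 12 it was also lower than 55294861. The last core position was the lowest of the 7 in 9 mice, 55294874 was the lowest in 2, and both were equally low in 1. Within 1 mouse the highest and lowest core positions differed by 15.5 to 45.2 points. This order was noticed in the values and has no test.

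Sexes were compared next, since the selection did not use sex. Core means in females and males were 24.3% ± 5.40 (n = 3) and 28.6% ± 2.77 (n = 3) in HFD, and 55.7% ± 6.68 (n = 4) and 49.8% ± 3.91 (n = 2) in RD. Females lay below males in HFD, by -4.36 points, and above them in RD, by 5.98 points. The mean of these within-diet differences, 0.81 points, was smaller than the spread between mice (exact permutation test within diets, two-sided, p = 0.833, adjusted p over 3 zones 0.833). The diet difference was -31.5 points in females and -21.1 points in males.

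The diet by sex interaction was tested in a limma fit over all tested tiles, where a tile is the mean of the sites in 500 bp. For the core its coefficient was -0.61 with a standard error of 0.355 on a log2 ratio scale (limma adjusted p = 0.987). The other tested tile of the locus, at the first 4 measured positions of Aqp1, had a coefficient of the opposite sign, 1.06 with a standard error of 0.519 (unadjusted p = 0.0649, limma adjusted p = 0.986). With limma, 0% of all tiles passed, and 5.09% had an unadjusted p-value under 0.05. Among single positions, 0 of the 14 tested in the locus passed the threshold of 0.05 for the interaction with limma, and 0% did among all 157524. The unadjusted p-value was under 0.05 at 2 of the 14, against 5.11% of all sites. Both are core positions, which were chosen for their diet difference, so nothing is read from that count. At 55294861, HFD and RD females had 29.4% ± 2.49 and 75.0% ± 4.12, and HFD and RD males had 36.6% ± 2.84 and 61.6% ± 5.24 (limma adjusted p = 0.969). At 55294876 the females had 28.2% ± 6.04 and 70.1% ± 10.5, and the males 37.4% ± 4.02 and 56.5% ± 1.97 (limma adjusted p = 0.972). In simulated data, a shift of 2 in 1 sex and diet was called at 0 of 200 sites and at 120 of 200 tiles, so the site test of this interaction had little power. For sex itself, 0 of 7 tested positions outside the core and 0 of 7 in it passed with limma, where 0% of all sites passed and 5.3% had an unadjusted p-value under 0.05. At that unadjusted level 0 of the 14 locus positions were counted. Both locus tiles missed the threshold for sex (limma adjusted p = 0.998 in the core and 0.997 in Aqp1), where 0.0168% of all tiles passed.

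Elsewhere in Mindy4, methylation was high and the diets overlapped. The nearest measured position, 55275759, lies 19.1 kb before the core. Its values were 66.7, 77.4 and 71.1% in the HFD females and 77.8, 60.0 and 66.7% in the HFD males. RD females 1 to 4 had 67.4, 69.0, 73.5 and 74.4%, and the RD males had 81.0 and 84.8%. HFD and RD mice overlapped, and the means were 69.9% ± 6.91 and 75.0% ± 6.77 (SD, n = 6 each; limma adjusted p = 0.884).

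Farther from the core, at 55249339, the HFD mice had 82.0 to 95.2% (median 91.6%) and the RD mice 93.1 to 99.0% (median 96.9%). This position had the smallest p-value of the locus outside the core (unadjusted p = 0.0237, limma adjusted p = 0.709), and its diets overlapped. Its neighbour 55249407 was methylated at 95.7% ± 3.81 in HFD and 96.9% ± 3.26 in RD. The pair nearest the gene start went the other way: 55230814 had 75.2% ± 5.05 in HFD and 74.1% ± 11.1 in RD, and 55230887 had 92.9% ± 5.21 and 88.6% ± 7.86 (SD, n = 6 each; limma adjusted p = 0.996 and 0.913). RD mice spread widely at 55230814, from 59.7% in female 2 to 91.2% in female 1.

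Between the core and Aqp1 nothing was measured for 48.5 kb: the last 25.3 kb of Mindy4, the space between the genes and the first 7.17 kb of Aqp1 held 0 positions. Whether the lower methylation of HFD mice reaches beyond the core on that side cannot be read from these data until Aqp1 itself.

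Inside Aqp1 a group of 5 positions at chr6:55343472-55343500 was nearly fully methylated. Their mean was 94.2% ± 3.86 in HFD (87.5 to 98.0%) and 95.9% ± 2.91 in RD (90.7 to 98.8%, n = 6 each). The first of them, 55343472, is also the measured position nearest to the core on the Aqp1 side. It had 76.9 to 100% in HFD (median 95.2%) and 80 to 100% in RD (median 96.7%), with the low ends set by HFD male 4 and RD female 4. The largest differences in Aqp1 were -4.01 points at 55343481 (90.9% ± 7.70 against 94.9% ± 3.02) and -3.72 points at 55343487 (94.2% ± 3.59 against 97.9% ± 3.25). Next came 55343472 with -1.07 points. The diets overlapped at each of the 3, and at 55343487 the difference was slightly larger than either SD.

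Farther into Aqp1, 55345173 and 55345209 were less methylated and more variable. The first lacked a value in HFD female 4. Over the others it had 75.8% ± 13.8 in HFD (n = 5) and 75.4% ± 7.23 in RD (n = 6). At 55345209, HFD females 2, 3 and 4 had 56.5, 46.7 and 36.4%, and HFD males 2, 3 and 4 had 56.3, 62.5 and 10%. The RD mice ran from 21.1% to 63.2% (median 46.5%). Mean methylation there was 44.7% ± 19.3 in HFD and 43.8% ± 15.1 in RD (SD, n = 6 each). This position was as intermediate as the core in RD mice, with a diet difference of 0.94 points (7.89 points without HFD male 4, which read 10%) and a wider spread between mice than the core mean had.

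**Figure D2:**
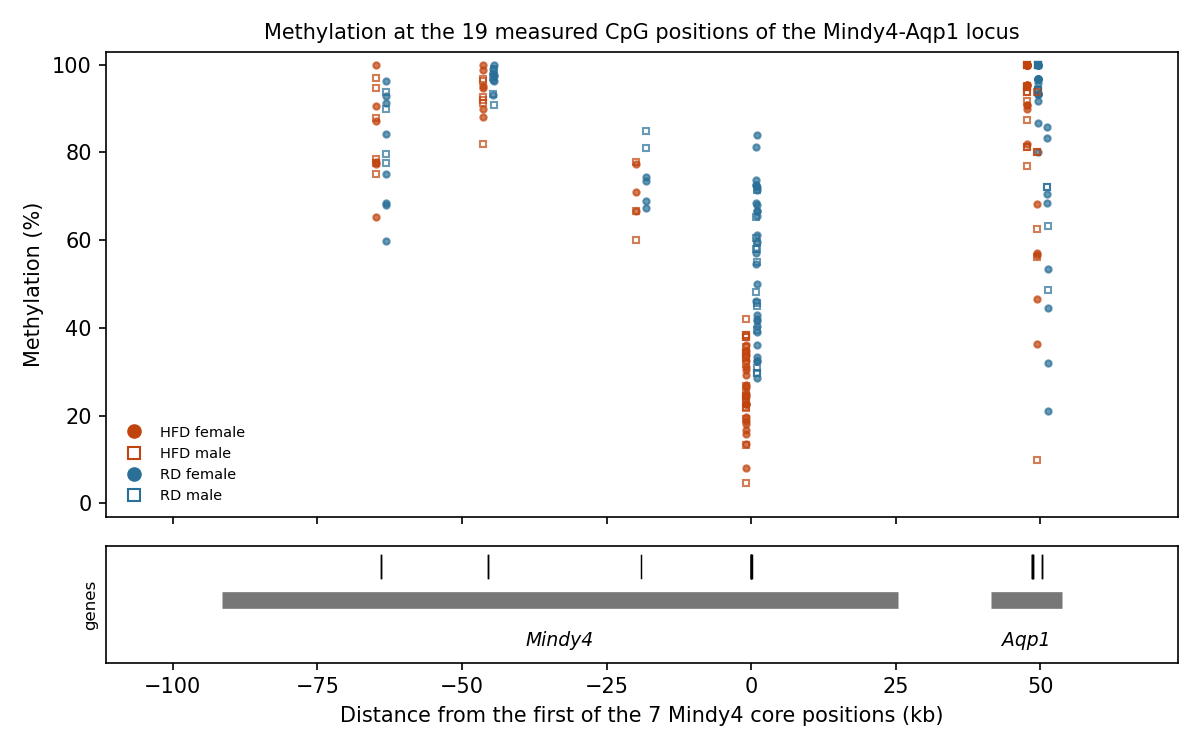
Methylation (%, vertical axis) of each mouse at the 19 positions, by distance from the first core position (kb, horizontal axis); HFD values are drawn slightly left and RD values slightly right of each position. The lower panel shows both genes to scale with measured positions as ticks. The diets separate at 0 kb and overlap at the positions before it and in Aqp1.

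Averaged by zone, the rest of Mindy4 (5 positions) had 84.8% ± 2.57 in HFD and 86.2% ± 4.14 in RD (SD, n = 6 each). The difference was -1.33 points (exact permutation test within sexes, two-sided, 350 arrangements, p = 0.534, adjusted over 2 zones 0.574). Its 95% interval, the range of shifts that this test does not reject, was -5.65 to 3.40 points. Aqp1, over the 6 positions with values in all mice, had 86.0% ± 4.44 in HFD and 87.2% ± 3.63 in RD. The difference of -1.26 points gave p = 0.574 (exact permutation test, adjusted p 0.574), with a 95% interval of -6.5 to 4.65 points. Both intervals exclude a shift of the whole zone mean as large as the one described at the core. Smaller decreases, down to -5.65 and -6.5 points, lay within them. A change of core size at 1 position is diluted in a zone mean, so the intervals do not exclude it. By sex, the Aqp1 difference was 2.25 points in females and -6.49 points in males, and that of the rest of Mindy4 was 0.41 and -4.33 points. All 3 HFD males lay below both RD males in either zone: 89.4, 83.3 and 79.8% against 90.4 and 90.9% in Aqp1, and 87.2, 84.6 and 81.3% against 88.1 and 89.3% in the rest of Mindy4. The females of the diets overlapped in both. These sex-specific zone values were not tested, and an order of 3 against 2 mice can easily arise by chance.

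**Figure D3:**
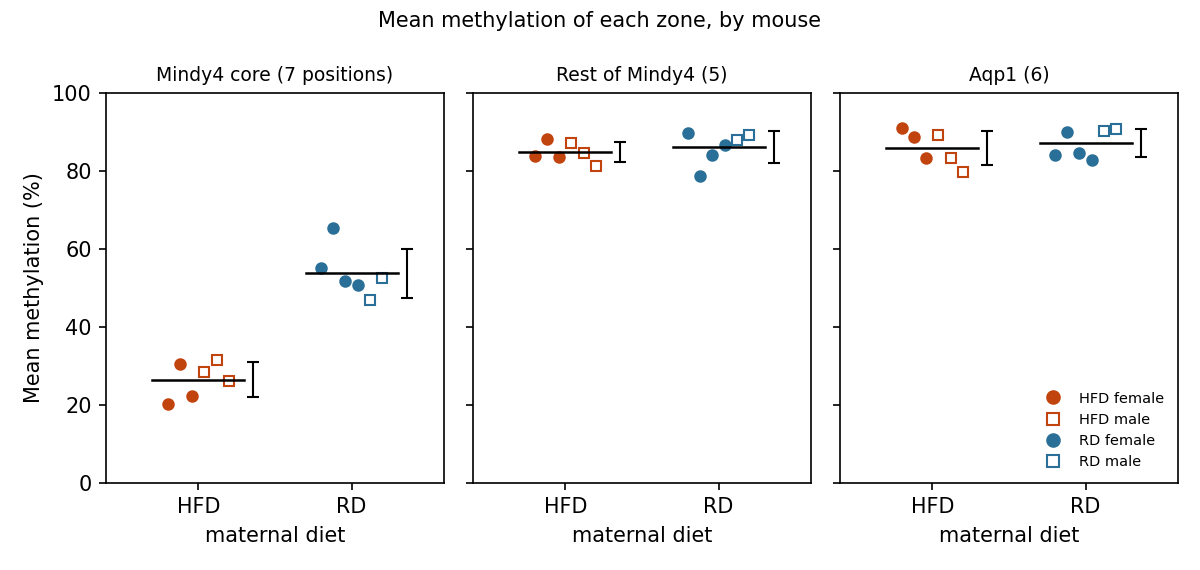
Mean methylation (%, vertical axis) of each mouse over the core, the rest of Mindy4 and Aqp1, by maternal diet. Points are mice, horizontal lines are diet means and bars at the side are ± 1 SD (n = 6); HFD mice lie at 20.1 to 31.5% and RD mice at 47.0 to 65.4% in the core, and the diets overlap in the other zones over both sexes.

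Position by position, the limma fit over the whole table was read next. In it, 2 of the 7 core positions passed the threshold for diet, where 0.0102% of 157524 sites did, but the rule used this contrast and nothing is read from the count. It fell to 0 in 9 of the 12 fits that each left out 1 mouse and with the replicate number as a block or missing values allowed, and was 3 with untransformed rates. The coefficients of both positions in the 12 fits without 1 mouse ran from -2.09 to -1.87 at 55294880 and from -2.26 to -1.94 at 55294861 on the log2 ratio scale. Outside the core, 0 of 7 tested positions passed, and 1 of 7 had an unadjusted p-value under 0.05, against 6.53% of all sites. On simulated rates the site fit called 0 of 200 sites shifted by 1 on the log2 ratio scale and 125 of 200 shifted by 2, so the fit had little power for the smaller shift. The other 5 positions were not in the fit, 4 because their mean was above 95% and 1 because a value was missing. Of all 12 positions outside the core, 7 were lower and 5 higher in HFD. Differences ran from -5.71 to 4.23 points, with a median of -0.55 points. The diets overlapped at each, as at nearly all tested sites: 0.335% were lower and 0.147% higher in HFD without overlap. Among tiles, 1 outside the core could be tested, at the first 4 positions of the Aqp1 group (-2.12 points, limma adjusted p = 0.861), where 0.0294% of 23791 tiles passed. The first measured positions beyond the window lay 12.2 kb before it, with 87.9% ± 5.90 in HFD and 85.5% ± 6.31 in RD, and 30.0 kb after it, with 83.5% ± 6.33 and 82.5% ± 10.9 and 1 missing value.

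Mice within a diet did not show a relation between the core and the other zones that passed a test. In HFD mice the core and the rest of Mindy4 had Pearson's r = 0.52 and Spearman's rho = 0.60 (exact permutation p = 0.300 and 0.242, n = 6), and r = 0.59 without the 2 mice farthest from the median core level. In RD mice r was -0.73 and rho -0.09 (exact permutation p = 0.119 and 0.919, n = 6). Without the 2 farthest mice r became 0.66, so the negative value rested on them. Core and Aqp1 gave r = -0.14 and rho = -0.26 in HFD (exact permutation p = 0.778 and 0.617, n = 6) and r = 0.19 and rho = 0.03 in RD (exact permutation p = 0.807 and 1, n = 6). Without the 2 farthest mice these were 0.43 and 0.10. Over the 4 relations the smallest adjusted p was 0.478 for r and 0.967 for rho (exact permutation).

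Cell type marker genes were examined in the same mice, because a whole ventricle mixes cell types and a shift in their shares cannot be told apart from a change within cells. Methylation within 1 kb of the ends of the endothelial genes, 7 of 12 of which had positions, averaged 16.1 to 21.0% in HFD and 21.1 to 29.1% in RD mice. All 7 were lower in HFD, by -27.0 points in Pecam1 to -0.02 in Kdr. Each gene counted equally in the list mean, though Robo4 had 1 position, Pecam1 had 2 and Cldn5 had 28. Pecam1, an adhesion molecule of endothelial junctions, had 19.4% ± 7.36 in HFD and 46.3% ± 2.13 in RD, and Esam, another junction protein, had 19.5% ± 3.82 and 35.0% ± 3.61 (SD, n = 6 each). Kdr, a receptor for vascular endothelial growth factor, had 5.76% ± 4.19 and 5.78% ± 4.08. The list separated the diets by a narrow margin, with HFD male 3 at 21.0% and RD female 4 at 21.1%. In the core the same mice had 31.5% and 50.7%. The part of the endothelial difference in the core was not tested.

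Cardiomyocyte genes, 6 of 12 with positions, averaged 32.7 to 39.5% in HFD and 37.0 to 40.8% in RD, and 4 of the 6 were lower in HFD. The largest differences were in Tnni3, the cardiac troponin I gene, with 28.8% ± 9.93 in HFD and 38.5% ± 10.8 in RD, and in Myh6, the alpha myosin heavy chain gene, with 67.3% ± 6.54 and 71.1% ± 4.37 (SD, n = 6 each). Ryr2, the calcium release channel of the sarcoplasmic reticulum, had 2.30% ± 1.80 and 2.28% ± 1.15, and Actn2, of the sarcomere Z disc, had 6.49% ± 3.08 and 6.53% ± 2.01. Fibroblast genes, 3 of 8 with positions (1 or 2 each), averaged 36.7 to 57.4% in HFD and 21.1 to 56.2% in RD, with 2 of 3 lower in HFD. The list of 7 blood cell genes had positions for 0. Aqp1 itself, an endothelial gene in the heart, had its measured positions well inside the gene, and these did not separate the diets.

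**Figure D4:**
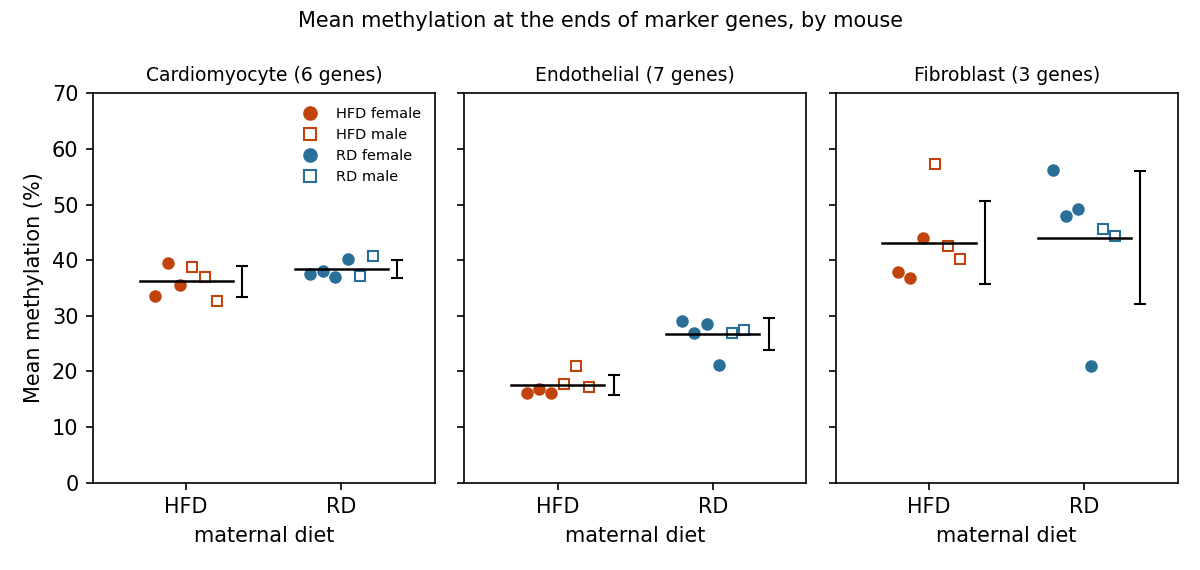
Mean methylation (%, vertical axis) within 1 kb of the ends of cardiomyocyte, endothelial and fibroblast marker genes in each mouse, by maternal diet. Points are mice, horizontal lines are means and bars are ± 1 SD (n = 6); the endothelial list lies at 16.1 to 21.0% in HFD and 21.1 to 29.1% in RD, and the other lists overlap.

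In RD mice the core, at 53.7%, was 1 of 3228 tiles with an RD mean of 40 to 65%, which were 13.6% of all tiles tested. Its spread within diets, 5.47 points, was close to their median of 5.28 points, and 52.7% of them had a smaller spread. The median diet difference was -0.48 points over these tiles and -0.18 points over all 23791, of which 53.3% were lower in HFD.

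Tiles whose levels followed the core most closely over the 12 mice were in Impact (Pearson's r = 0.93), Cmip (0.92), Epas1 (0.92), Adora2a (0.91) and Arhgap26 (0.91). All 5 were lower in HFD, a direction that the choice of tiles fixes, with differences of -42.7, -12.8, -13.8, -9.03 and -9.45 points. Impact is an imprinted gene, and Epas1 encodes the hypoxia-responsive factor HIF-2α. After the means of the 4 groups of diet and sex were subtracted, 5 other tiles came first, nearest to Gm35274, Gm17746, Gm40972, Gm9443 and Prdm1 (r = 0.94 to 0.90). Their diet differences ran from -10.4 to 4.57 points. On that scale Impact had r = 0.65, Cmip 0.20, Epas1 0.44, Adora2a 0.69 and Arhgap26 0.73. These correlations are descriptions over 12 mice, picked as the highest of 23791. The adjusted p-values next to the threshold belonged to tiles in Prorp and in Commd1 and Zrsr1 inside it (-25.6 and -16.8 points) and in Rgs3 and Esam outside it (-19.9 and -15.4 points).

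Relatives of both genes were read from the same tiles. Of the MINDY family of 4, all had measured positions within 1 kb of the gene, but only Mindy1 and Mindy4 had a tile to test. Mindy1, whose product trims ubiquitin chains, had 1 tile, which was -9.36 points from RD to HFD (limma adjusted p = 0.437, with an unadjusted p-value under 0.05, as at 7.81% of all tiles). Over all its positions with values in every mouse, Mindy1 had 6.52% ± 0.549 in HFD and 7.27% ± 0.804 in RD (SD, n = 6 each). Mindy2 and Mindy3 were almost unmethylated at such positions. Mindy2 had 3.09% ± 2.69 in HFD and 1.37% ± 2.02 in RD, and Mindy3 had 0.83% ± 0.079 and 0.956% ± 0.267 (SD, n = 6 each).

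Among 12 aquaporin genes, 9 had positions and 7 had tiles. With limma, 0 of their 9 tiles passed in either direction. At an unadjusted p-value under 0.05 the number was also 0. The share over all tiles was 0.0294% past the threshold and 7.81% with an unadjusted p-value under 0.05. The median difference was 0.065 points, and 4 of 9 were lower in HFD. Aqp4, the main water channel of the brain, had a tile 3.67 points higher in HFD (limma adjusted p = 0.987). Aqp7, which also carries glycerol, had 71.1% ± 3.14 in HFD and 72.3% ± 2.09 in RD over its measured positions.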

How the data were processed

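RRBS libraries of 12 left ventricles were analysed from 1 table of percent methylation per CpG that the authors deposited, used as given. The submitters' processing notes name FastQC, Trim Galore, Bismark 0.19, limma and the build mm10, without roles. Coverage minimum and strand handling are not given in the sources used here. All columns matched 1 sample each (0 unmatched), and samples had 385299 to 417081 values. Sites were fitted with limma 3.58.1 (R 4.3.3) as log2((rate + 0.05)/(1 − rate + 0.05)), rates as fractions, with diet and sex as terms, over 157524 autosomal sites with values in all 12 samples and a mean of 5 to 95%. Tiles of 500 bp with at least 3 sites were fitted alike. P-values were adjusted by Benjamini-Hochberg over all features (threshold 0.05). The core is chr6:55294855-55294925. Zone means were compared with exact permutation tests (numpy 2.4.6). On simulated rates, a diet shift of 1 was recovered at 0 of 200 sites and 129 of 200 tiles, with 0 and 15 false calls. A shift of 2 was recovered at 125 of 200 sites and 192 of 200 tiles, with 5 and 12 false calls. Gene bounds and promoters came from RefSeq (GRCm38.p6, the assembly that mm10 names). Members, lists and naming rules were chosen with earlier results of these data known. Named were all core positions, the nearest complete position on each side, locus sites past a threshold, the 3 smallest diet p-values outside the core, the 3 largest differences in Aqp1 and the 5 most similar tiles. Other positions and genes were added to account for every member and list. No pairing by replicate number was seen: the 4 same-numbered pairs correlated at -0.030 to 0.010, and other pairs at -0.030 to 0.040. These values cannot exclude a shared litter or batch. Alternatives covered offsets, transformation, limits, missing values, variances, the sex term, blocks, tiles and leaving out samples. Figures were drawn with matplotlib 3.10.9.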

Additional observations from a re-analysis of the deposited data

Results flagged for a closer look

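Single mice that stood apart from the other 5 of their diet by Dixon's 95% test are listed here, 9 in 50 sets of values. About 2.5 would be by chance if values were independent and normally distributed. Rates limited at 100% are not normally distributed, so no excess is read from the count. In the core, RD female 2 had 41.5% at the last position against 29.8 to 33.3% in the other RD mice. Elsewhere in Mindy4, HFD female 4 had 65.2% at 55230814 against 75.0 to 78.5%. In Aqp1, HFD male 4 had 76.9% and RD female 4 had 80% at 55343472, against 93.8 to 100% and 94.1 to 100% in the others of their diets. HFD male 3 had 81.3% at 55343479, where the other HFD mice had 100%, so any lower value would have been flagged. In the endothelial marker list HFD male 3 had 21.0% against 16.1 to 17.8%, and RD female 4 had 21.1% against 26.9 to 29.1%. In the fibroblast list HFD male 2 had 57.4% against 36.7 to 44.0%, and RD female 4 had 21.1% against 44.4 to 56.2%.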

How the results depend on the processing

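A planned coverage minimum of 20 against 10 could not be applied without coverage values, and tiles of 1000 bp left no tile to test outside the core. Counts of positions or tiles past the threshold stayed at 0 under each alternative run: 20 for diet outside the core, 19 for sex, 19 for the interaction and 15 for tiles. Over the whole table, the fits that left out 1 mouse called 0 to 22 sites for diet, against 16 with all mice. The core difference ranged from -29.8 to -25.0 points over 17 alternatives. That of the rest of Mindy4 ranged from -2.79 to 1.05 points (p from 0.110 to 0.946, exact permutation), and that of Aqp1 from -2.29 to 0.99 points (p from 0.340 to 0.995, exact permutation), so the sign of either was not fixed. The mean within-diet sex difference of the core ranged from -0.79 to 2.19 points over 16 alternatives (p from 0.613 to 0.973, exact permutation). This measure and its alternatives were chosen after seeing the data, because RD mice make up unequal parts of the sexes. Leaving out 1 mouse gave -28.6 to -25.0 points in the core, -2.79 to -0.58 in the rest of Mindy4 and -2.29 to -0.02 in Aqp1. With the replicate number as a block, pairs of equal number and sex differed by -29.8 points in the core, 1.05 in the rest of Mindy4 (exact permutation p = 0.750) and 0.99 in Aqp1 (exact permutation p = 0.625), and 0 positions outside the core passed. The samples share only a number.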
